A study of Homo sapiens with 2 samples.

Results

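The cell cycle and mitosis genes described here are 50 genes, read out by every probe whose gene name on the array is on the list. Of the 50, 49 carried the listed name and CDK1 was found under its older name, CDC2. They were measured by 65 of the 41000 probes and stand for 50 of the 30238 gene names on the array. The genes were set apart by phase as 5 G1 genes, 17 S phase genes, 27 mitotic genes and the atypical cyclin CCNG2. The rule for membership is a gene name and sets no limit on a measured value, but the list was drawn up with earlier results of these data known.

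The arrays compared drug resistant derivatives of A2780, a human ovarian carcinoma cell line, with co-cultured control cells, A2780CC, which had been kept in continuous culture without drug selection. A2780CBN had been selected in rising doses of carboplatin, a platinum drug that crosslinks DNA, up to 22.2 µM. A2780CBNDXL had been selected in carboplatin combined with docetaxel, a taxane that stabilizes microtubules, and the labels give 8.02 µM as the terminal dose of the combination. The study's text gives a lower terminal dose for this line. It uses the figure of the labels for the carboplatin part of its inhibitory concentration in the survival assay, with docetaxel at 8.02 nM. Selection by small dose steps was meant to yield resistant populations and not single clones. For each line, RNA from 3 isolations was pooled into 1 sample and hybridized on 4 two-colour arrays, of which arrays 1 and 3 carried the control in Cy3 and the resistant line in Cy5 (forward labelling) and arrays 2 and 4 carried the dyes the other way round (reverse labelling). Arrays 1 and 2 lay on 1 slide and arrays 3 and 4 on the other. The 4 arrays repeat 1 RNA sample, so the standard deviations below cover labelling and hybridization only, no test across samples was possible, and no p-value is given.

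A cell passes from growth (G1) through DNA replication (S phase) and a second gap (G2) into mitosis, and cyclins paired with cyclin-dependent kinases (CDKs) drive each step. D-type cyclins with CDK4 and CDK6 act in G1, E-type cyclins with CDK2 open S phase, and A- and B-type cyclins with CDK1 carry the cell into mitosis. Transcripts for replication are turned on mainly through E2F factors late in G1, whereas transcripts for mitosis peak later, under the control of the DREAM and MuvB complexes, B-MYB and FOXM1, which act on a promoter element called the cell cycle genes homology region (CHR). Levels in an unsorted culture therefore follow both the share of cells in each phase and the RNA per cell, and bulk RNA cannot tell these apart.

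Every gene was measured well above background in both dyes on every array where its spots were kept. Outlier spots removed 1 or more arrays for CCND3, CCNB2 and CDC20 in A2780CBN and for CDT1, TYMS and CCNB2 in A2780CBNDXL, which left 47 of the 50 genes with all 4 arrays in each line. Over whole arrays, 59.8% to 67.5% of spots in a dye were above background and no spot was saturated. The coefficient of variation of the spike-in controls lay between 3.66% and 4.79% except on array 1 of A2780CBNDXL, where it was 18.1% in green and 16.7% in red. The epithelial keratins KRT8 and KRT18, the Müllerian factor PAX8 and the mesenchymal filament VIM were above background on all 4 arrays of both lines, while KRT7, CDH1, WT1 and MUC16 were above background on no array of either line.

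The promoters of the S phase and the mitotic genes differed in the letters they hold, and 4 of them are shown for genes that recur below. The 250 bases before the RefSeq gene start (GRCh38.p14) were searched on both strands for the CHR letters TTTGAA, the E2F letters TTTGGCGC, TTTCCCGC, TTTGCCGC and TTTCGCGC, and CCAAT, the box bound by NF-Y. A promoter was found for 38 of the 50 genes. E2F letters were present in 8 of 13 S phase promoters (61.54%) and 2 of 21 mitotic promoters (9.52%), against 2.79% of all 27305 promoters. CHR letters were present in 1 of 13 S phase promoters (7.69%) and 10 of 21 mitotic promoters (47.62%), against 13.57% of all promoters. CCAAT was present in 69.23% of the S phase, 80.95% of the mitotic and 33.04% of all promoters. Capitals mark these matches in the sequences, which run 5′ to 3′ on the strand of the gene: CDK1 on the plus strand of chr10:60778081-60778330, CENPF on the plus strand of chr1:214602945-214603194, TOP2A on the minus strand of chr17:40417897-40418146, and MCM6 on the minus strand of chr2:135876444-135876693.
CDK1: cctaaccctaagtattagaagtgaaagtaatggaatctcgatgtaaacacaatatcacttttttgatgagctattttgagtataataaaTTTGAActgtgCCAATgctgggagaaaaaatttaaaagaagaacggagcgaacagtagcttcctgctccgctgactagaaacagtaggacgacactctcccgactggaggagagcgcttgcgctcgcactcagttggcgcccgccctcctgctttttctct
CENPF: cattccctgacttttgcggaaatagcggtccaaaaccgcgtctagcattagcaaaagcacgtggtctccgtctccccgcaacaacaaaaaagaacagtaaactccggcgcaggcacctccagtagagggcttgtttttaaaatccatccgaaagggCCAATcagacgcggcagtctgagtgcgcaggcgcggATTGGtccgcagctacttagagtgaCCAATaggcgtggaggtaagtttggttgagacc
TOP2A: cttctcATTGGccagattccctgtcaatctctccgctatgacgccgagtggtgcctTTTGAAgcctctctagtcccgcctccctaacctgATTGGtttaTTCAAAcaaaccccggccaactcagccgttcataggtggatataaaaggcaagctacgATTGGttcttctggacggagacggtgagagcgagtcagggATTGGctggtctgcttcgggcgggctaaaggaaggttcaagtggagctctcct
MCM6: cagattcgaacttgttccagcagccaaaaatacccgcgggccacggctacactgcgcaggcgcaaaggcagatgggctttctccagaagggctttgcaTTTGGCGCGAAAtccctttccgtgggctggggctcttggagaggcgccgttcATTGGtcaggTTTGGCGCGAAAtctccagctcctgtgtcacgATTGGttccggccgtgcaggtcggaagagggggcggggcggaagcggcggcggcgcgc
The CDK1 promoter held 1 CHR match and the TOP2A promoter 2. The MCM6 promoter held 4 E2F matches, which lie in a pair of identical stretches with overlapping matches on opposite strands. In CENPF only CCAAT was matched, at 3 positions. Such matches describe the letters of these windows and were not tested as binding sites.

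Values below are log2 ratios of the resistant line over its control, as the mean of forward and reverse arrays with equal weight. A gene was called where its mean lay 2-fold or more from control, no array had the opposite sign, and the probe was above background. In A2780CBN 2 of the 47 genes were called, CCNG2 higher and CDK6 lower, which is 4.26% beside 12.6% of all 17949 genes tested (8.01% higher, 4.57% lower). In A2780CBNDXL 3 of 47 were called, CDK6 higher and CDK1 and CENPF lower, which is 6.38% beside 17.0% of all 17120 genes tested (7.72% higher, 9.23% lower). Both shares were below those of all genes. CDK6 in A2780CBN, at -1.03, lay just inside the limit, and TOP2A in the same line, at 0.96, just outside. At a limit of 1.5-fold, 4 genes were higher and 7 lower in A2780CBN (8.51% and 14.9%, beside 14.6% and 12.5% of all genes), and 2 were higher and 11 lower in A2780CBNDXL (4.26% and 23.4%, beside 16.4% and 17.0%). In all, 23.4% and 27.7% of the list passed it in the lines, beside 27.1% and 33.4% of all genes. At that limit the share of higher calls was below that of all genes in both lines. The share of lower calls in A2780CBN was near that of all genes, and the larger share in A2780CBNDXL was not tested.

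**Figure D1:**
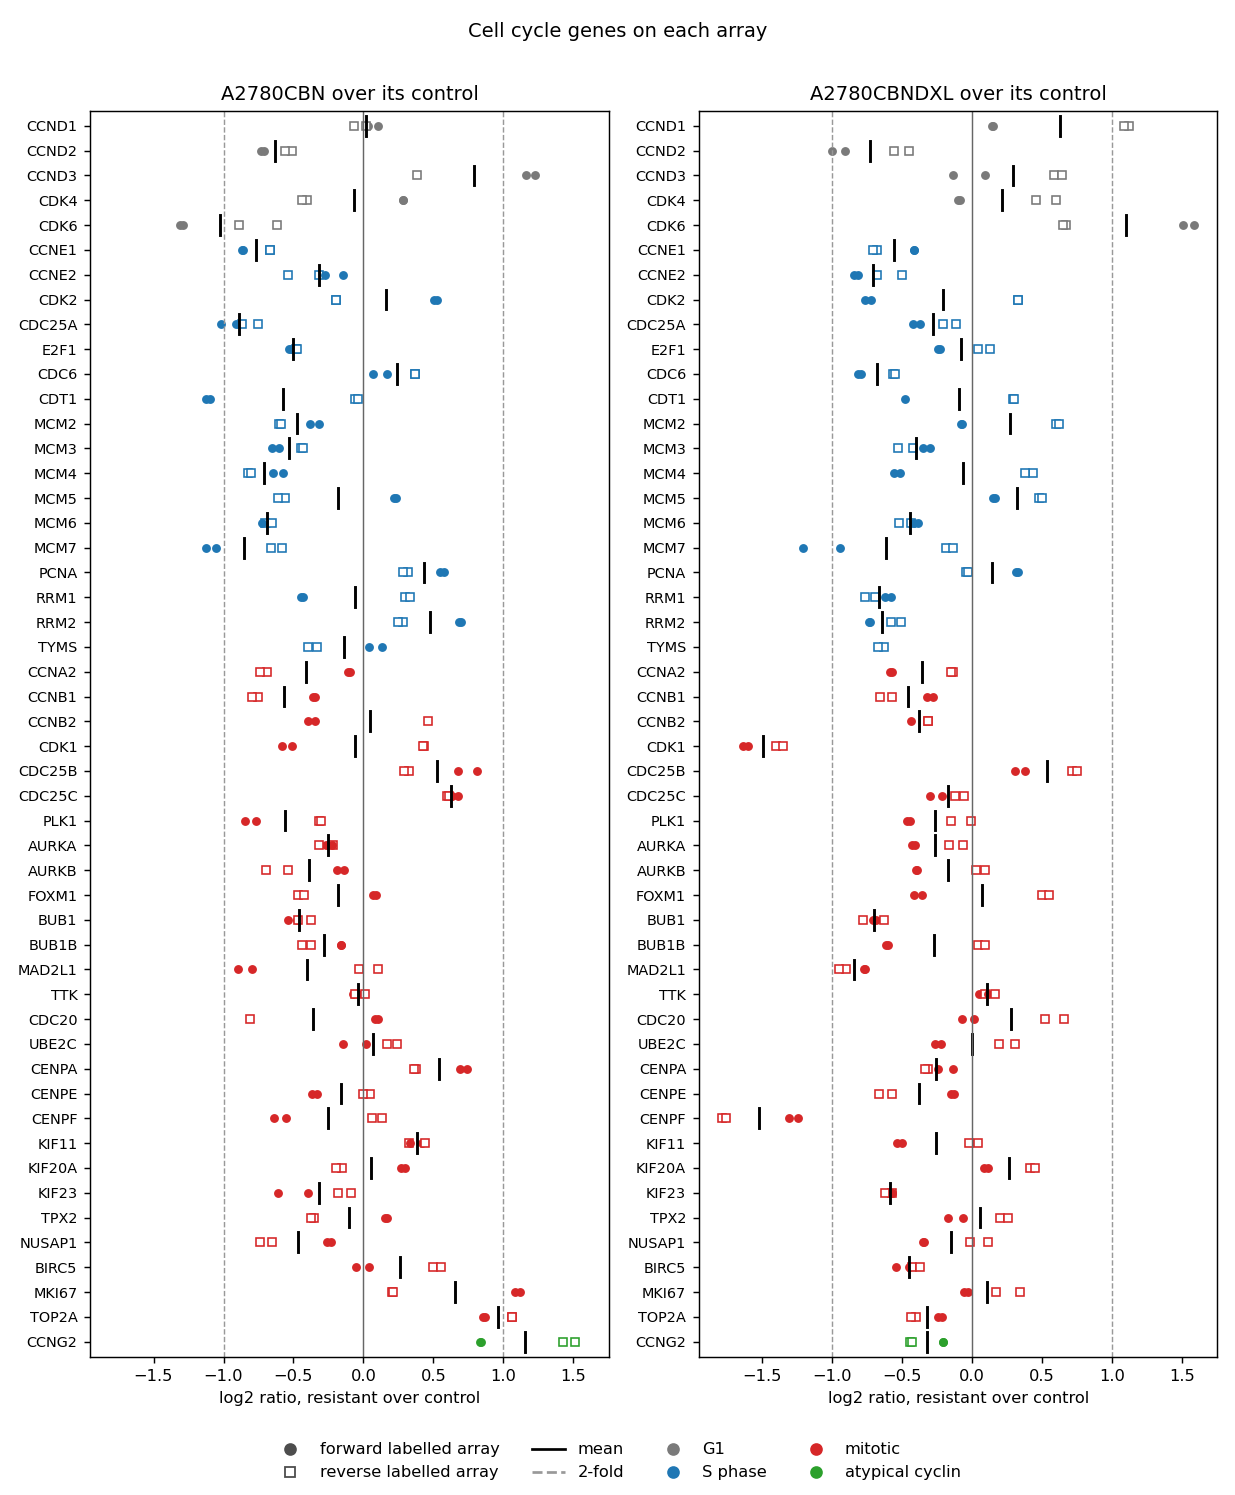
Log2 ratio of each resistant line over its control (horizontal axis) for the 50 genes, with 1 point per array (filled circles for forward, open squares for reverse labelling), black bars for means, dashed lines at 2-fold and colours for the phase. Most genes lie within 2-fold of control, CDK6 sits on opposite sides in the lines, and CDK1 and CENPF are below -1 on every array of A2780CBNDXL.

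Among the 5 G1 cyclins and kinases, CDK6, a partner of the D-type cyclins, was lower in A2780CBN and higher in A2780CBNDXL. In A2780CBN the CDK6 log2 ratios were -1.29, -0.89, -1.31 and -0.62 on arrays 1 to 4 (mean -1.03 ± 0.33, SD, n = 4 arrays). In A2780CBNDXL they were 1.58, 0.67, 1.5 and 0.65 (mean 1.1 ± 0.51, a fold of 2.14). All arrays were below 0 in the first line and above 0 in the other, so the array values did not overlap. The probe lies at chromosome 7, 92072379 to 92072438 (NCBI36, the build of the array files). The other CDK6 probe had the same signs, at -0.46 ± 0.29 and 1.62 ± 0.30, and only in A2780CBNDXL did it pass 2-fold. The call in A2780CBN was lost, at -0.62, with another background correction (normexp with an offset of 50) and, at -0.96, without array 2.

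The 3 D-type cyclins, the activating partners of CDK4 and CDK6, did not move as a block. CCND2 was below control on every array of both lines, at -0.71, -0.51, -0.73 and -0.56 in A2780CBN (mean -0.63 ± 0.11) and at -0.91, -0.56, -1.0 and -0.45 in A2780CBNDXL (mean -0.73 ± 0.26). CCND1 stood at 0.02 ± 0.07 in A2780CBN. In A2780CBNDXL its values of 0.14, 1.12, 0.15 and 1.09 (mean 0.62 ± 0.55) split by labelling, with the reverse arrays high and the forward arrays near control. CCND3 was above control in A2780CBN on the 3 arrays that kept it, at 1.23, 0.38 and 1.16 (mean 0.79 ± 0.47), with its other probe at 0.42 ± 0.43. In A2780CBNDXL CCND3 was at 0.29 ± 0.38. CDK4 changed sign with labelling in both lines, with means of -0.07 ± 0.41 and 0.22 ± 0.37.

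Of the 5 genes that control the G1/S step, none was called in either line. In A2780CBN 4 of 5 were below control on every array (80.0%, beside 33.1% of all genes). CDC25A, the phosphatase that activates CDK2, was the lowest there at -0.91, -0.75, -1.02 and -0.87 (mean -0.89 ± 0.11). CCNE1, cyclin E1, was at -0.77 ± 0.11 and the transcription factor E2F1 at -0.50 ± 0.03 in that line. CDK2 was the highest, with values of 0.50, -0.19, 0.53 and -0.19 that changed sign with labelling. In A2780CBNDXL the lowest was CCNE2, cyclin E2, at -0.84, -0.50, -0.82 and -0.68 (mean -0.71 ± 0.15), and CCNE1 was at -0.56 ± 0.16. CDC25A was nearer control at -0.28 ± 0.14, with its other probe at 0.05 ± 0.70, and E2F1 was the highest of the 5 with values of -0.24, 0.12, -0.23 and 0.04.

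The 9 licensing and fork genes load and run the replication machinery: CDC6 and CDT1 place the MCM2 to MCM7 helicase on DNA, and PCNA is the sliding clamp of the polymerases. In A2780CBN 6 of the 9 were below control on every array (66.7%, beside 33.1% of all genes). MCM7 was the lowest at -1.13, -0.58, -1.05 and -0.66 (mean -0.86 ± 0.28). MCM6, whose promoter is shown above, read -0.68, -0.70, -0.72 and -0.66 (mean -0.69 ± 0.03), the tightest of the helicase genes. MCM4 was at -0.71 ± 0.12, MCM3 at -0.54 ± 0.11, MCM2 at -0.47 ± 0.15 and MCM5 at -0.18 ± 0.47. PCNA was above control on every array, at 0.55, 0.31, 0.58 and 0.28 (mean 0.43 ± 0.15), and CDC6 was at 0.24 ± 0.15. CDT1 split by labelling, with -1.1 and -1.12 on the forward arrays and -0.06 and -0.04 on the reverse arrays. Its other probe was below control on every array of this line, at -0.30, -0.59, -0.29 and -0.71 (mean -0.47 ± 0.21).

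In A2780CBNDXL the helicase genes did not share a sign. MCM7 (-0.62 ± 0.54), MCM6 (-0.44 ± 0.06) and MCM3 (-0.40 ± 0.10) were below control on every array, MCM4 (-0.07 ± 0.55) and MCM2 (0.27 ± 0.39) changed sign with labelling, and MCM5 was above control on every array at 0.16, 0.48, 0.15 and 0.50 (mean 0.32 ± 0.19). The lowest of the 9 was CDC6, at -0.80, -0.56, -0.82 and -0.55 (mean -0.68 ± 0.14). PCNA was at 0.14 ± 0.21. CDT1 was at -0.09 ± 0.45 on 3 arrays, and its other probe was above control on all 4 at 0.42 ± 0.35.

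The nucleotide supply genes are RRM1 and RRM2, the subunits of ribonucleotide reductase, and TYMS, thymidylate synthase. RRM2 was above control on every array of A2780CBN, at 0.70, 0.28, 0.68 and 0.25 (mean 0.48 ± 0.25), and below control on every array of A2780CBNDXL, at -0.74, -0.51, -0.73 and -0.58 (mean -0.64 ± 0.11). A second RRM2 probe changed sign with labelling in A2780CBN, at 0.92, -0.04, 0.97 and -0.05 (mean 0.45 ± 0.57), and read -0.39 ± 0.04 on the 3 arrays that kept it in A2780CBNDXL. RRM1 changed sign with labelling in A2780CBN (mean -0.06 ± 0.43) and was at -0.58, -0.70, -0.63 and -0.76 in A2780CBNDXL (mean -0.67 ± 0.08). TYMS read 0.13, -0.40, 0.04 and -0.33 in A2780CBN. Only the reverse arrays kept TYMS in A2780CBNDXL, at -0.63 and -0.67, so it has no balanced mean there.

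CDK1, the kinase that drives entry into mitosis, was the lowest of the 10 kinases, cyclins and regulators of G2/M in A2780CBNDXL. Its log2 ratios were -1.60, -1.40, -1.64 and -1.35 (mean -1.5 ± 0.14), 2.82-fold below control on the linear scale, with every array below the 2-fold limit. In A2780CBN they were -0.51, 0.43, -0.58 and 0.43, with the sign set by labelling and a mean of -0.06 ± 0.56. The probe spans chromosome 10, 62222010 to 62223656 (NCBI36). The CDK1 partners CCNB1 and CCNA2 were closer to control than CDK1 in A2780CBNDXL and further from it in A2780CBN. CCNB1, cyclin B1, was the lowest of the 10 in A2780CBN, at -0.36, -0.75, -0.35 and -0.80 (mean -0.57 ± 0.24). In A2780CBNDXL it was at -0.46 ± 0.19. CCNA2, cyclin A2, was at -0.41 ± 0.35 and -0.36 ± 0.25. All arrays of both lines were below control for both of these cyclins.

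The CDC25 phosphatases remove inhibitory phosphates from CDKs. CDC25C was the highest of the G2/M group in A2780CBN, at 0.63, 0.59, 0.67 and 0.61 (mean 0.63 ± 0.03), and was at -0.18 ± 0.11 in A2780CBNDXL. CDC25B was above control on every array of both lines, at 0.53 ± 0.26 in A2780CBN and at 0.30, 0.72, 0.38 and 0.75 (mean 0.54 ± 0.23) in A2780CBNDXL. PLK1, AURKA and AURKB are mitotic kinases. In A2780CBN PLK1 was at -0.56 ± 0.29, AURKB at -0.39 ± 0.27 and AURKA at -0.26 ± 0.05, each below control on all 4 arrays of the probe used. In A2780CBNDXL the same kinases were at -0.27 ± 0.23, -0.17 ± 0.27 and -0.27 ± 0.18, and a second PLK1 probe had the opposite sign at 0.47 ± 0.47. That probe changed sign with labelling in A2780CBN, at -0.13 ± 0.67. FOXM1, a transcription factor for mitotic genes, changed sign with labelling in both lines.

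The spindle checkpoint holds the anaphase-promoting complex (APC/C) back until chromosomes are attached. BUB1, a checkpoint kinase, was the lowest of these 6 genes in A2780CBN at -0.47, -0.47, -0.54 and -0.37 (mean -0.46 ± 0.07), and stood at -0.70 ± 0.06 in A2780CBNDXL. MAD2L1, which inhibits the APC/C activator CDC20, was the lowest in A2780CBNDXL at -0.76, -0.90, -0.77 and -0.95 (mean -0.85 ± 0.09). In A2780CBN it was at -0.41 ± 0.51, with the forward arrays low and the reverse arrays near control. CDC20 was the highest in A2780CBNDXL at -0.08, 0.52, 0.01 and 0.66, and UBE2C, the ubiquitin-conjugating enzyme of the APC/C, was the highest in A2780CBN at 0.02, 0.17, -0.15 and 0.24. The means of the kinase TTK lay next to control in both lines, at -0.04 ± 0.04 and 0.10 ± 0.05.

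CENPF, a kinetochore protein that accumulates in G2 and mitosis, was the lowest of all 50 genes in A2780CBNDXL. Its log2 ratios were -1.24, -1.78, -1.31 and -1.76 (mean -1.52 ± 0.29), 2.88-fold below control, and the other CENPF probe read -1.23 ± 0.29. In A2780CBN CENPF was at -0.55, 0.06, -0.64 and 0.14 (mean -0.25 ± 0.40), above the range seen in A2780CBNDXL on every array. The probe lies at chromosome 1, 212903931 to 212903990 (NCBI36). Other kinetochore genes did not follow it to that size in A2780CBNDXL: CENPE, a kinetochore motor, was at -0.38 ± 0.28 and CENPA, the centromeric histone, at -0.26 ± 0.09.

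Among the rest of the kinetochore, spindle and cytokinesis genes, CENPA was the highest in A2780CBN at 0.69, 0.38, 0.74 and 0.36 (mean 0.54 ± 0.20). NUSAP1, a spindle microtubule protein, was the lowest there at -0.26, -0.65, -0.23 and -0.74 (mean -0.47 ± 0.26). KIF11, the motor that separates the spindle poles, was above control on every array of A2780CBN at 0.38 ± 0.06 and at -0.26 ± 0.31 in A2780CBNDXL. Its other probe read 0.40 ± 0.16 in A2780CBN and -0.58 ± 0.14 in A2780CBNDXL, below control on every array of the latter. KIF23, a motor of the central spindle, was at -0.32 ± 0.23 and -0.59 ± 0.02. KIF20A was the highest of the group in A2780CBNDXL at 0.09, 0.41, 0.11 and 0.45 (mean 0.27 ± 0.19). BIRC5, survivin, was at 0.26 ± 0.31 in A2780CBN and below control on every array of A2780CBNDXL at -0.45 ± 0.07.

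The proliferation marker TOP2A, the topoisomerase that untangles chromosomes before they separate, was above control in A2780CBN at 0.87, 1.06, 0.85 and 1.06 (mean 0.96 ± 0.12). That is 1.94-fold, just short of the limit. In A2780CBNDXL it was below control on every array, at -0.24, -0.40, -0.22 and -0.44 (mean -0.33 ± 0.11). MKI67, which encodes the Ki-67 antigen, was above control on every array of A2780CBN at 1.08, 0.21, 1.12 and 0.21 (mean 0.65 ± 0.51), with the forward arrays far above the reverse arrays. In A2780CBNDXL MKI67 read -0.03, 0.17, -0.06 and 0.34.

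CCNG2, cyclin G2, is an atypical cyclin known for being expressed in cells leaving the cycle and for inhibiting growth. It was the highest of the 50 genes in A2780CBN, at 0.83, 1.51, 0.84 and 1.43 (mean 1.15 ± 0.37, 2.22-fold). In A2780CBNDXL it was at -0.21, -0.44, -0.21 and -0.43 (mean -0.32 ± 0.13), below control on every array. The probe lies at chromosome 4, 78306719 to 78306778 (NCBI36). The other CCNG2 probes read 1.49 ± 0.12 and 0.39 ± 0.23 in A2780CBN, and -0.42 ± 0.32 and 0.21 ± 0.04 in A2780CBNDXL, so the 3 probes shared a sign in the first line only. With normexp at an offset of 50 the A2780CBN value was 0.92, short of the 2-fold limit.

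By phase, the S phase genes lay lower than the mitotic genes in A2780CBN. The median log2 ratio of the S phase genes was -0.47 and that of the mitotic genes -0.16, beside -0.06 for all genes tested. The medians of single arrays had an SD of 0.02 for the S phase and 0.07 for the mitotic genes. Below control on all 4 arrays were 10 of the 17 S phase genes and 9 of the 25 tested mitotic genes, and above on all 4 were 3 and 6. The shares below are 58.8% and 36.0%, beside 33.1% of all genes, and those above 17.6% and 24.0%, beside 27.7%. The mitotic shares in this line were thus close to those of all genes. In A2780CBNDXL the medians were -0.34 for S phase and -0.27 for mitotic genes, beside 0.04 for all genes, with SDs of the array medians of 0.16 and 0.17. There the S phase median was below the mitotic median on every array, at -0.45, -0.21, -0.42 and -0.13 against -0.40, -0.12, -0.35 and -0.07. Both medians moved together with labelling, and the difference between them was smaller than that movement. The typical size of a change was no larger than elsewhere in A2780CBNDXL, with a median absolute log2 ratio of 0.32 over the 50 genes and 0.39 over all genes, and was 0.41 beside 0.33 in A2780CBN.

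**Figure D2:**
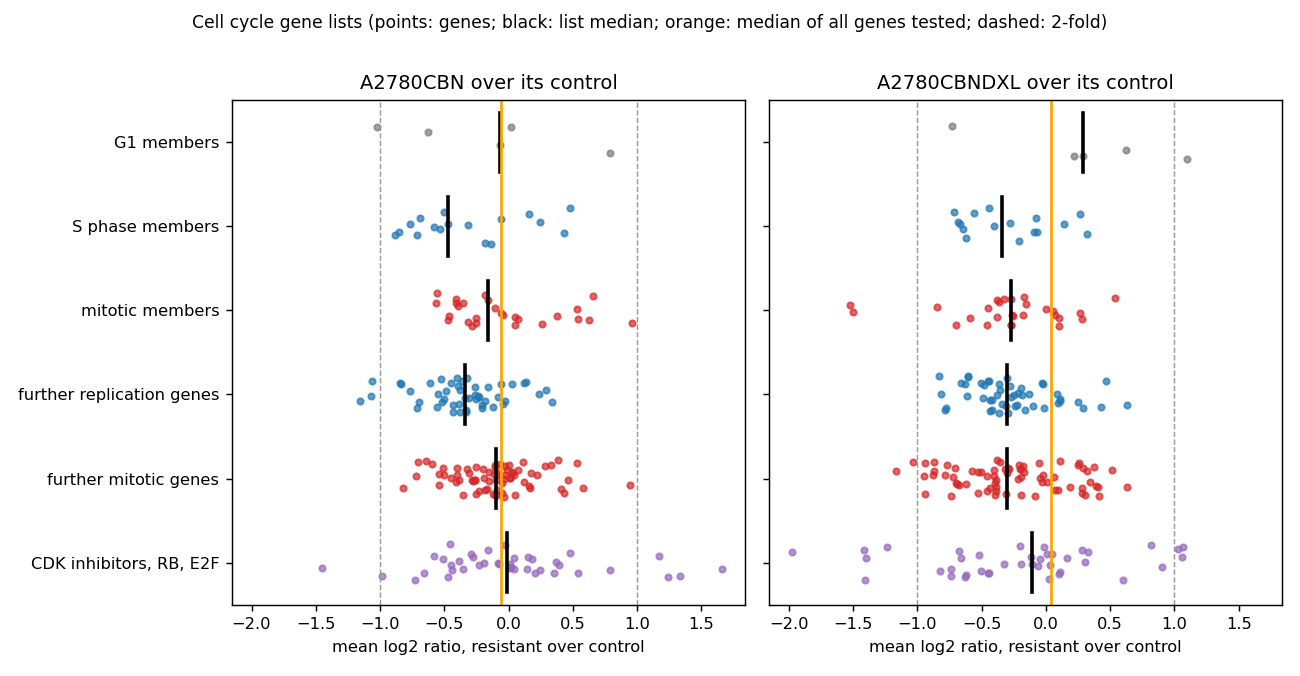
Mean log2 ratio of each gene (points, horizontal axis) in 6 lists for A2780CBN (left) and A2780CBNDXL (right), with black bars for list medians, an orange line for the median of all genes tested and dashed lines at 2-fold. In A2780CBN the S phase and further replication genes lie to the left of the mitotic lists (medians -0.47 and -0.34 against -0.16 and -0.10), and in A2780CBNDXL these 4 medians lie between -0.34 and -0.27.

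Genes of the same pathways outside the 50 were read in the same way, and in A2780CBN replication genes again had the lower median. A list of 49 further replication genes had a median of -0.34 in A2780CBN and -0.30 in A2780CBNDXL. Of the 45 tested in A2780CBN, 27 were below control on all 4 arrays and 2 above (60.0% and 4.44%, beside 33.1% and 27.7% of all genes). Of the 44 tested in A2780CBNDXL, 29 were below and 3 above (65.9% and 6.82%, beside 33.1% and 36.4%). A list of 71 further mitotic genes had medians of -0.10 and -0.30. Those below control on all 4 arrays were 26 of 68 tested in A2780CBN (38.2%) and 32 of 65 in A2780CBNDXL (49.2%), and those above were 10 (14.7%) and 14 (21.5%). At the 2-fold limit 3 of 45 tested replication genes (6.67%) were lower in A2780CBN, beside 4.57% of all genes, and none was higher. These were GINS1 (-1.06 ± 0.26), a subunit of the replicative helicase complex, DTYMK (-1.16 ± 0.27), thymidylate kinase, and TIPIN (-1.07 ± 0.25), which protects stalled forks. None of the 68 tested mitotic genes was called in that line. In A2780CBNDXL no replication gene was called, and 2 of 65 tested mitotic genes (3.08%) were lower, beside 9.23% of all genes. These were HMMR (-1.16 ± 0.44), a spindle protein, and ECT2 (-1.04 ± 0.52), which starts the cleavage furrow.

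The last list held 40 further genes with a probe. They were CDK inhibitors, the RB and E2F families, other cyclins and CDKs, and regulators such as SKP2 and MYBL1. In A2780CBN 4 of the 36 tested were higher and 1 lower, and in A2780CBNDXL 3 of 36 were higher and 5 lower. These shares are 13.9% and 22.2%, beside the 12.6% and 17.0% of all genes given above. The share in A2780CBN was near that of all genes, and the larger share in A2780CBNDXL was not tested. CDKN1A, which encodes the CDK inhibitor p21, was above control on all arrays of both lines, at 1.77, 0.92, 1.76 and 0.89 in A2780CBN (mean 1.34 ± 0.50) and at 0.91, 1.15, 0.92 and 1.14 in A2780CBNDXL (mean 1.03 ± 0.13). SKP2, which targets the inhibitor p27 for degradation, was below control on all arrays of both lines, with means of -1.45 ± 0.13 and -1.41 ± 0.18. CDKN1B, which encodes p27, was at 0.48 ± 0.08 in A2780CBN and 1.06 ± 0.51 in A2780CBNDXL. CDKN1C, which encodes p57, was at 1.66 ± 0.09 in A2780CBN, 3.16-fold above control, and at 0.10 ± 0.29 in A2780CBNDXL. CDKN2D, an inhibitor of CDK4 and CDK6, was at 1.17 ± 0.39 and -0.44 ± 0.20.

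Of the remaining called regulators, MNAT1, an assembly factor of the CDK-activating kinase, was the lowest in A2780CBNDXL at -1.70, -2.21, -1.74 and -2.23 (mean -1.97 ± 0.29), and was at -0.98 ± 0.45 in A2780CBN. MYBL1, a MYB family transcription factor, read 1.01, 1.40, 0.96 and 1.58 in A2780CBN (mean 1.24 ± 0.30) and -0.97, -1.69, -1.08 and -1.85 in A2780CBNDXL (mean -1.40 ± 0.44), on opposite sides of control on every array. The repressors E2F5 and E2F7 were lower in A2780CBNDXL at -1.40 ± 0.08 and -1.24 ± 0.18, and stood at -0.47 ± 0.19 and -0.73 ± 0.36 in A2780CBN. CDK3 was higher in A2780CBNDXL at 1.06 ± 0.30.

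**Figure D3:**
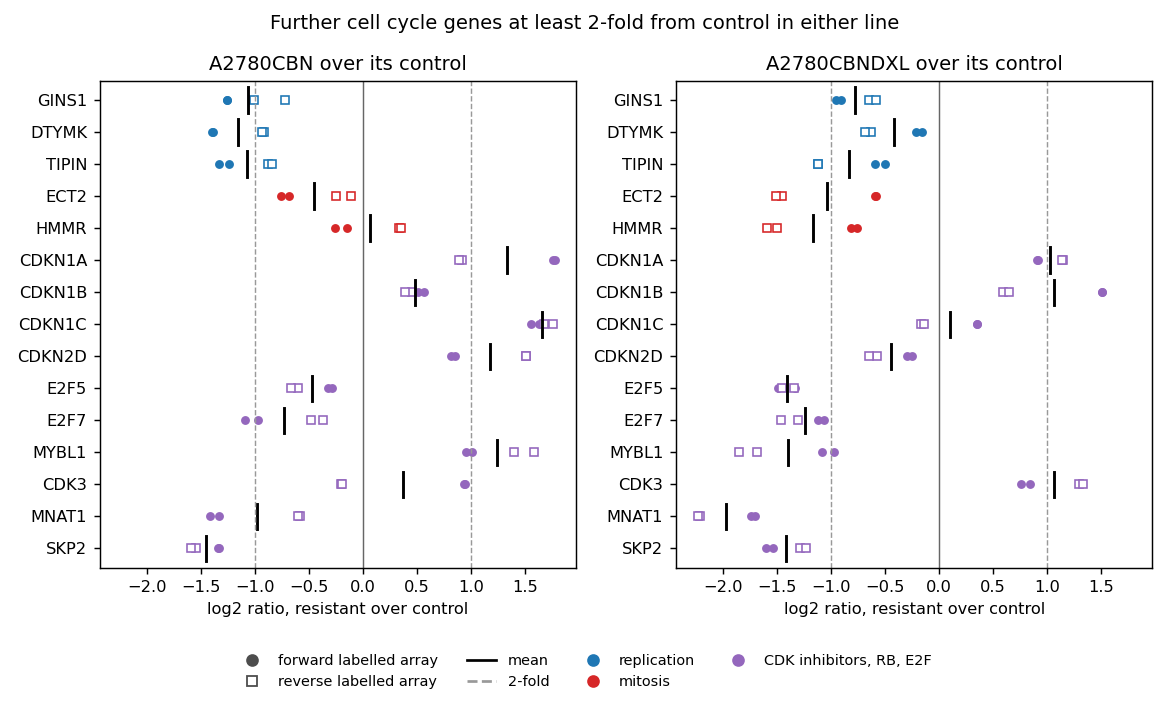
Log2 ratio over control on each array (horizontal axis) for the 15 further cell cycle genes called in either line, with filled circles for forward and open squares for reverse arrays, black bars for means and dashed lines at 2-fold. CDKN1A lies to the right and SKP2 to the left in both lines, and MYBL1 lies on opposite sides.

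A direct view of the lines came from the single channels, scaled between arrays and compared on arrays matched for slide and dye. Of the 45 genes of the list that could be compared, 5 were called between A2780CBNDXL and A2780CBN, beside 16.6% of all genes. In the matching control channels 1 of 45 was called, beside 4.60% of all genes. CDK6 was higher in A2780CBNDXL by 3.13, 3.12, 3.15 and 2.65 (mean 3.01 ± 0.24), the widest gap of the list, while the controls differed by 0.89 ± 0.68. The scaled log2 signal of CDK6 averaged 8.76 in A2780CBN, 9.79 in its control, 10.67 in the control of A2780CBNDXL and 11.77 in A2780CBNDXL. So the line channels held the lowest and the highest level, and the control of each line lay between them.

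The 4 genes lower in A2780CBNDXL than in A2780CBN were TOP2A (-1.42 ± 0.15), CDK1 (-1.20 ± 0.18), CENPF (-1.13 ± 0.21) and RRM2 (-1.12 ± 0.34). For these genes the controls differed by -0.13 ± 0.14, 0.24 ± 0.45, 0.14 ± 0.52 and -0.01 ± 0.29. For CCNG2 both pairs of channels were apart. Its channel in A2780CBNDXL was below that in A2780CBN by 0.15, 0.51, 0.54 and 0.41, whereas the control channels differed by 0.89, 1.44, 0.50 and 1.45 (mean 1.07 ± 0.46) in the other direction. Its mean scaled log2 signal was 10.58 in the control of A2780CBN and 11.65 in the control of A2780CBNDXL, beside 11.74 and 11.33 in the resistant lines. The CCNG2 ratio in A2780CBN was thus taken against the lower of these control signals. The same held for CDKN2D among the further regulators, whose controls differed by 1.03 ± 0.47. The part of the controls in these ratios was not tested.

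**Figure D4:**
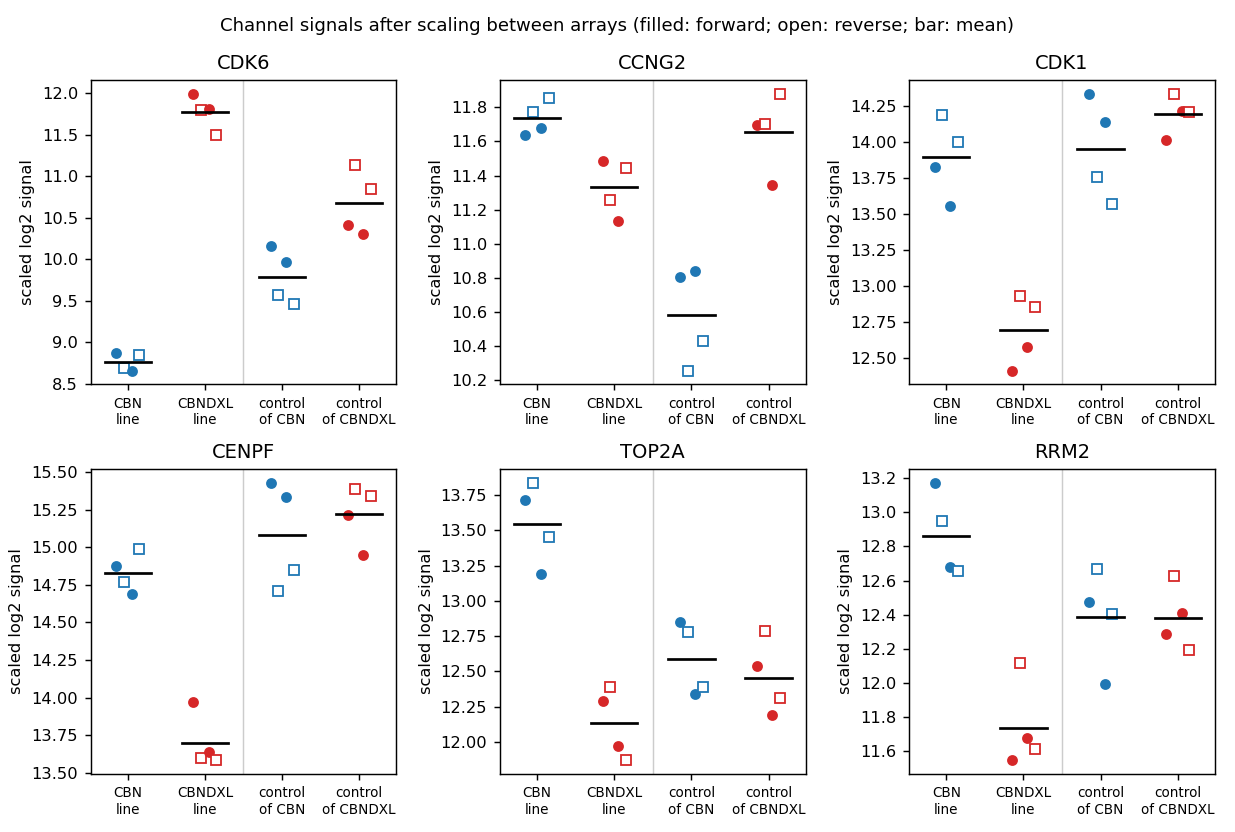
Scaled log2 signal (vertical axis, with its own range in each panel) of 6 genes in the resistant and control channels, with blue for A2780CBN arrays, red for A2780CBNDXL arrays, filled circles for forward, open squares for reverse labelling and bars for means. The controls of CDK1, CENPF, TOP2A and RRM2 overlap while the resistant lines are apart, and for CCNG2 the controls are apart, as are, by less, the resistant lines.

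Labelling direction moved the values of these genes more than the slide did. The median gap between the forward and reverse means was 0.43 in A2780CBN and 0.34 in A2780CBNDXL, beside 0.35 and 0.32 over all genes, and the median gap between slides was 0.02 and 0.04. The forward and reverse means had opposite signs for 17 genes in each line, and the matching share of all genes is not given here. By a related count, the 4 arrays did not share a sign for 16 of the 47 tested genes in each line. Over all genes this held for 7033 of 17949 in A2780CBN and 5218 of 17120 in A2780CBNDXL, so such splits were not particular to this list. The widest gaps were those of CDT1 in A2780CBN (1.06) and CDK2 in A2780CBNDXL (1.07). Of the called genes, CDK6 in A2780CBN had forward arrays at or beyond -1.29 and reverse arrays short of 2-fold, CDK6 in A2780CBNDXL also passed 2-fold on the forward arrays alone, and CCNG2 in A2780CBN on the reverse arrays alone, while CDK1 and CENPF in A2780CBNDXL were beyond 2-fold on the arrays of either labelling. For 9 genes the array printed the same probe 10 times, and the SD among these spots had a median of 0.04 and a range of 0.02 to 0.16, below the median gap between labellings.

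**Figure D5:**
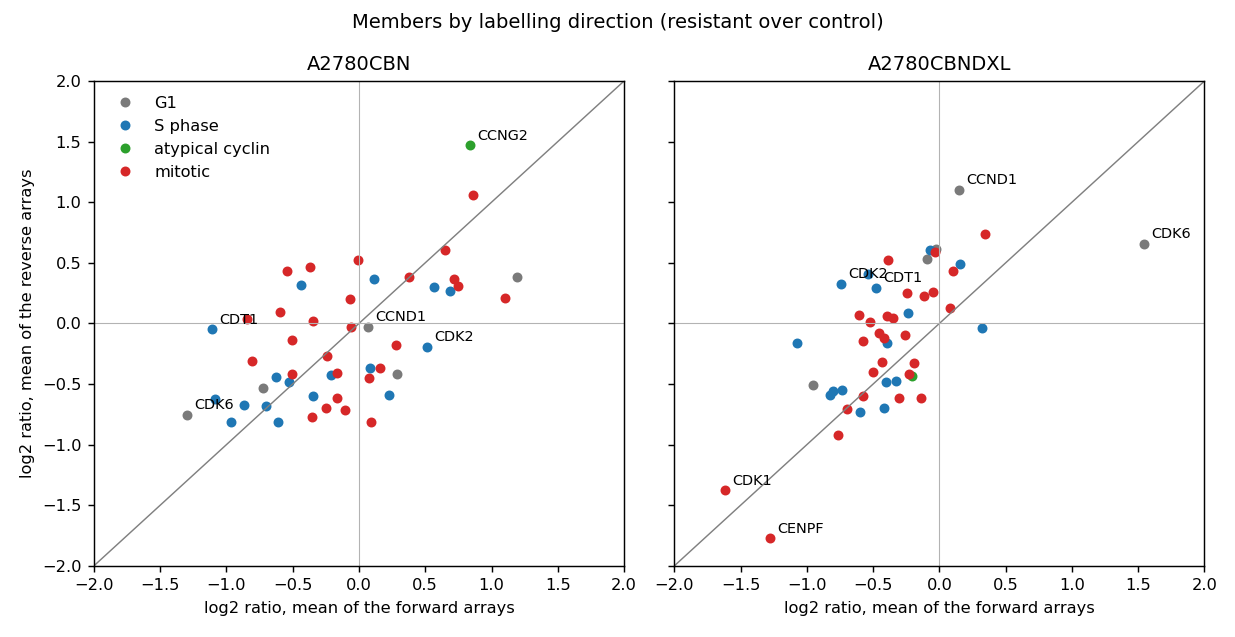
Mean log2 ratio of the forward arrays (horizontal axis) against that of the reverse arrays (vertical axis) for each gene in A2780CBN (left) and A2780CBNDXL (right), coloured by phase, with the diagonal of equal values. Points in the upper left and lower right are the 17 genes per line whose sign depends on the labelling, while CDK1 and CENPF lie at the lower left.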

How the data were processed

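Total RNA of 2 resistant lines and their co-cultured controls was hybridized on 8 Agilent two-colour arrays, 4 per line. The deposited files hold the scanner output of the authors: per spot, the green and red processed signal intensity, background-subtracted and dye-normalized by Agilent Feature Extraction (version 10.7.1.1 for the first slide, 10.7.3.1 for the other, per the file headers), with probe positions on NCBI36. Per the labels the authors analysed them in Partek. Their methods name a 3-way analysis of variance and a 2-fold limit.

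Outlier spots were dropped, repeated spots averaged, and log2 ratios of resistant over control averaged over forward and reverse arrays. Each gene was represented by its brightest probe over all arrays. The dye entries of the reverse arrays conflict between sources. They were turned over as their name states, after which forward and reverse arrays correlated at 0.58 to 0.61 in A2780CBN and 0.73 to 0.75 in A2780CBNDXL. Direction rests on the labels of the forward arrays. Channels were compared after Aquantile scaling.

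The genes and lists were chosen with earlier results of these data known. Every listed gene could be named, with all array values for called genes and for the highest and lowest of each role, and of further lists the called genes, up to 5 per list, direction and line. The array precision is limited by 4 arrays of 1 sample per line. Alternatives were run with limma 3.58.1 (R 4.3.3) and Python 3.11.15. In simulated data with 100 genes changed by 1.5 on the log2 scale, the 2-fold rule recovered 98 in A2780CBN and 100 in A2780CBNDXL. It made 5 and 2 false calls. With limma, 59 and 67 of these genes were recovered, with 0 false calls in each line. Recovery of genes changed by less than 1.5 was not tested, nor was the spread between samples. Promoters came from RefSeq. A total of 63 of 65 probes matched a RefSeq transcript, each of the named gene.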

Additional observations from a re-analysis of the deposited data

Results flagged for a closer look

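CDK6 and MYBL1 were called in opposite directions in the lines. The CDK6 log2 ratio in A2780CBNDXL exceeded that in A2780CBN by 2.13, with all 4 arrays of A2780CBNDXL above control and all 4 of A2780CBN below. The MYBL1 log2 ratio in A2780CBNDXL minus that in A2780CBN was -2.64, with all 4 arrays of A2780CBNDXL below control and all 4 of A2780CBN above. The CDK6 call in A2780CBN did not hold under every alternative below. How many of all genes were called in opposite directions is not given here. With 1 RNA sample per line these differences were not tested.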

How the results depend on the processing

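The calls of CDK6, CDK1 and CENPF in A2780CBNDXL held under all alternatives at the 2-fold limit. In A2780CBN 1 gene of the list was higher and 1 lower. With normexp and loess, at an offset of 50 or of 1 (the latter chosen after seeing the data), both counts were 0. The lower count was also 0 with centred background-subtracted signals, on slide 2 alone and with the mean over probes, and ranged from 0 to 1 when single arrays were left out. A limit of 1.5-fold gave 4 higher and 7 lower in A2780CBN and 2 higher and 11 lower in A2780CBNDXL, and a limit of 3-fold gave 0 in each. The S phase median in A2780CBN, -0.47, was -0.44 (offset 50), -0.43 (offset 1) and -0.52 (centred), and no other phase median moved beyond the spread between arrays. Of the further genes, 4 higher and 4 lower in A2780CBN became 1 and 0 at 3-fold, with 18 lower at 1.5-fold. These 18 are 12.1% of the 149 tested, beside 12.5% of all genes. In A2780CBNDXL the 3 higher became 0 (offset 50), 1 (offset 1), 7 (1.5-fold) and 0 (3-fold), and the 7 lower became 36 (1.5-fold) and 1 (3-fold). At 1.5-fold these are 4.83% higher and 24.8% lower of the 145 tested, beside 16.4% and 17.0% of all genes, and the larger lower share was not tested. At 3-fold, 6.28% of all genes were called in A2780CBN and 8.59% in A2780CBNDXL. Between the line channels, 1 higher and 4 lower became 3 and 10 at 1.5-fold, and the RRM2 call among the 4 rested on array pair 1. The 1 higher in the control channels became 2 at 1.5-fold, 0 on slide 2 alone and 0 to 1 with single array pairs left out. The 3-way model in limma changed none of the counts for the 50 genes. For genes of the list of 50, single-gene log2 ratios kept their size and call in 659 comparisons with alternatives and moved in 13. They lost the call in 8, all of the latter CDK6 or CCNG2 in A2780CBN. The cause of these shifts was not tested. No paired analysis was possible because the arrays of a line repeat 1 pooled sample.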
